A study of Mus musculus with 15 samples.

Results

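Long intergenic noncoding RNAs (lincRNAs) are transcripts that lie between protein-coding genes and carry no long open reading frame. Of the 16658 genes in the expression table of this study of the mouse heart, 631 had lincRNA as their gene type. The members described here were the 279 of those genes whose level reached log2 CPM 0, where CPM is read counts scaled to a common library size, in at least 3 of the 11 libraries, leaving out Gm42418. Mhrt, the cardiac myosin transcript, was also left out and is in any case typed as antisense. The members were chosen by their measured level in these same libraries, so the levels are given as a description. A further 351 lincRNA genes stayed below the rule.

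The libraries came from hearts of male C57BL/6 mice of 8 to 10 weeks. Sham mice (3 libraries) were compared with mice that went through ischaemia-reperfusion, with 90 min of ligation of the left anterior descending artery and then 24 h of reperfusion. The operated mice were left untreated (2 libraries) or were given an anticoagulant. Rivaroxaban, which inhibits coagulation factor Xa, was given at 3 mg/kg for 7 days (2 libraries), and dabigatran, which inhibits thrombin (factor IIa), at 10 mg/kg for 7 days (2 libraries). Activated protein C (aPC), a protease that inactivates clotting cofactors and signals through cell surface receptors, was given at 1 mg/kg 30 min before surgery (2 libraries). Per the labels, drugs were restarted 2 h after surgery, and the sampled tissue held the infarct together with muscle around it. The labels list 15 libraries, and 1 each of the untreated, rivaroxaban, dabigatran and aPC groups was not analysed here. Libraries are named by their titles, in which Cont marks the untreated group, Riva rivaroxaban and Dabi dabigatran. The labels do not say whether libraries of a group came from separate operations, so p-values measure the spread between these libraries.

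Some lincRNAs stay in the nucleus and organise it. Malat1 collects in nuclear speckles beside splicing factors, and Neat1 is the scaffold of paraspeckles. Others act on neighbouring genes, are expressed from imprinted clusters, or are precursors whose introns or exons are cut to release microRNAs or small nucleolar RNAs. In the heart, Bvht (Braveheart) and Carmn are known from cardiac commitment and from smooth muscle, and Mirt1 was named for its association with myocardial infarction. Most lincRNAs of the mouse annotation have no known function: 133 of the 279 members carried a predicted-gene symbol beginning with Gm, 110 a Rik symbol, and 36 a symbol of another kind.

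The members just inside and just outside the level rule differed little. 4930479D17Rik and Gm26541 had the 3rd-highest of their libraries at log2 CPM 0.02 and were included, and Gm13387 and Gm32200 had theirs at -0.0020 and -0.0080 and were not. Mir155hg, the host of an inflammatory microRNA, fell outside too, at -0.0080 in the 3rd-highest library. In all, 156 members were at the level in all 11 libraries, 18 in 3 libraries only, and 38 in 3 or 4. A member in that last set can have passed through the group where it was high. Every library of the group was at the level for 8 of the 38 in the untreated hearts, for 6 in rivaroxaban, for 6 in dabigatran, for 3 in aPC and for 2 in sham.

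The members were spread over the genome (GRCm38, GENCODE M21) in a range of positions. Of the 279 loci, 50 overlapped the locus of a protein-coding gene, 92 lay within 10 kb of the nearest one, and 137 lay farther away. A transcription start that faced away from a coding gene within 1000 bp was found for 39 members. Exonic length had a median of 2146 bases and ran from 241 to 20771, the longest being Neat1. For 33 members the exons overlapped exons of a coding gene.

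MicroRNA hosts were 1 set of members with a defined product. By position on the same strand, 15 members held 67 mature microRNAs of the RefSeq annotation (GRCm38.p6). The sequences printed are those of 3 of the hosts on the role lists that were called in at least 1 comparison. Snhg20, also on a role list and called, holds miR-6516 and is not printed. Hosts outside the role lists were called too, among them E130102H24Rik, 2900076A07Rik and C130071C03Rik. The libraries were made from polyadenylated RNA, so the values describe the host transcripts, and mature microRNAs were not measured. Mir142hg, at chr11:87755577-87757270 on the plus strand, is the precursor of miR-142, a microRNA of blood cell lineages. Mir17hg, at chr14:115042879-115046727 on the plus strand, carries the miR-17 to miR-92 cluster, known for its part in cell growth. H19, at chr7:142575529-142578143 on the minus strand, is an imprinted transcript that contains miR-675 in an exon. The capitals mark the seed, bases 2 to 8.
mmu-miR-142a-5p: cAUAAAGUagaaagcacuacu
mmu-miR-142a-3p: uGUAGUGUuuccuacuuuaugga
mmu-miR-17-5p: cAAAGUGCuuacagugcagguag
mmu-miR-20a-5p: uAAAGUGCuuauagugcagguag
mmu-miR-18a-5p: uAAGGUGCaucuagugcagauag
mmu-miR-19a-3p: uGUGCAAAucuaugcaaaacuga
mmu-miR-19b-3p: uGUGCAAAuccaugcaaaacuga
mmu-miR-92a-3p: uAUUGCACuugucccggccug
mmu-miR-675-5p: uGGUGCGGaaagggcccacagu
mmu-miR-675-3p: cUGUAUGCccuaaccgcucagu
miR-17-5p and miR-20a-5p share the seed AAAGUGC, and miR-19a-3p and miR-19b-3p share GUGCAAA. The seed of miR-18a-5p, AAGGUGC, belongs to neither pair.

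Promoter windows (250 bases before to 50 after the RefSeq start) were found for 148 members, 102 of which began within 100 bp of the start in GENCODE M21. The 3 windows shown belong to members that were highest in the dabigatran hearts and began within 100 bp of the annotated start. Mirt1 has its window at chr19:53464747-53465046 on the minus strand, 1700030N03Rik at chr19:3197654-3197953 on the minus strand, and 1700128A07Rik at chr14:106486471-106486770 on the minus strand. Capitals mark matches to the motifs named after the sequences.
Mirt1: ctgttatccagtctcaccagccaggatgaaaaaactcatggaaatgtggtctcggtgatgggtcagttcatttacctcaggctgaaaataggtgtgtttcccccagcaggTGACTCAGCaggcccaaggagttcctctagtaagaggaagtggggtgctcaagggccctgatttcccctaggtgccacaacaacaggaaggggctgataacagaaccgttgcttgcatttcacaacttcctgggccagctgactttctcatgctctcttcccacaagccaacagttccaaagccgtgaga
1700030N03Rik: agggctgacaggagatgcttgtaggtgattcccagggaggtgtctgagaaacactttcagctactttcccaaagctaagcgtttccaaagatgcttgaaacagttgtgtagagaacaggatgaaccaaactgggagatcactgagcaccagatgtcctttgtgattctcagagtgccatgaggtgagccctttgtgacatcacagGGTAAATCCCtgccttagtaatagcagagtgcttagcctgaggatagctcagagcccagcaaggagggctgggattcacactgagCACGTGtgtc
1700128A07Rik: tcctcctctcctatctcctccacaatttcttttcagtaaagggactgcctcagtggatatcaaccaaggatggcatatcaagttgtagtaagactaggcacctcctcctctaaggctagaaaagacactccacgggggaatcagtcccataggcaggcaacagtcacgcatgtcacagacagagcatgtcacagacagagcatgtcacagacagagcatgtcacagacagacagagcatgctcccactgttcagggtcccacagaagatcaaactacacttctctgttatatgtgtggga
The Mirt1 window contained TGACTCA, the letters of an AP-1 site, which lay inside a match to the antioxidant element TGACNNNGC. The 1700030N03Rik window held CACGTG, an E-box and, on the other strand, a match to the NF-kB motif. No match to these motifs, to TATAAA, to CCAAT or to AGATAA was found in the 1700128A07Rik window. Searched on both strands, the AP-1 letters stood in 4.73% of the 148 member windows and 5.2% of all 32851 windows, the E-box in 9.46% and 7.15%, the NF-kB motif in 0.676% and 1.2%, and the antioxidant element in 14.9% and 12.4%. A match describes letters and shows no binding.

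The libraries held 26203566 to 36135006 reads on the listed genes, and a log2 CPM of 0 stood for 22.8 to 37.4 reads. The members took 0.986% to 1.71% of the reads, and 0.247% to 0.333% without Malat1, Neat1 and Gm26561. Their median level was log2 CPM 1.14, against 4.37 over the 13541 genes that passed the level rule, so they were measured with more counting error than the usual gene. The 2 untreated libraries stood apart from each other. Between them, 92 of 279 members (33%) differed by more than 1 on the log2 scale, 69 being higher in Cont_17 and 23 in Cont_19, whereas 3.23% to 10% did so in the other within-group pairs. AI838599 had log2 CPM 2.84 in Cont_17 and -0.84 in Cont_19, and 4930552P12Rik had -0.92 and 2.03 (both named after their values were seen). Over all genes tested the share was 16.4% in the untreated pair. Gm42418, which lies beside the member Gm26917 on chromosome 17, took 6.78% and 6.73% of the reads in the aPC libraries and 0.997% to 2.09% in the others.

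**Figure D1:**
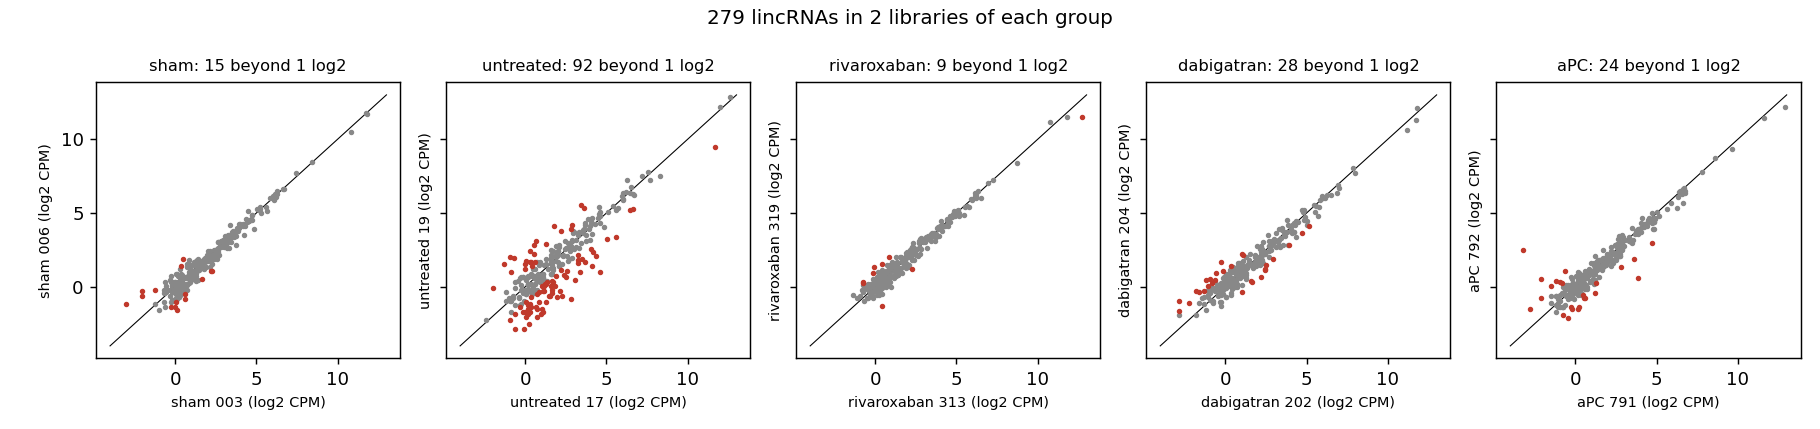
Each point is 1 of the 279 lincRNAs, with its log2 CPM in 1 library on the horizontal axis and in another library of the same group on the vertical axis; the line marks equal levels and red points differ by more than 1 on the log2 scale. The untreated pair has 92 red points, the sham pair shown 15, rivaroxaban 9, dabigatran 28 and aPC 24.

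The labelled tissue was checked with marker genes of heart cells and leukocytes. The 6 cardiomyocyte markers in the table were at high levels in every library, and their summed level was 49640 to 68190 CPM in sham, 58720 to 75730 in untreated, 48900 to 53210 in rivaroxaban, 38240 to 38890 in dabigatran and 55200 to 59830 in aPC hearts. The 9 neutrophil markers summed to 32.5 to 50.9 CPM in sham, 108 to 166 in untreated, 18.9 to 42.5 in rivaroxaban, 593 to 1043 in dabigatran and 43.2 to 110 in aPC. Of the 8 neutrophil markers tested, 8 were higher in dabigatran than in sham hearts and 6 were higher in untreated than in sham hearts. Ly6g had 0 reads in every sham and rivaroxaban library. Monocyte and recruited macrophage markers (8 genes) summed to 279 to 419 CPM in sham, 127 to 141 in untreated, 209 to 260 in rivaroxaban, 536 to 562 in dabigatran and 414 to 483 in aPC. Of the 8, 2 were called lower in untreated and 4 higher in dabigatran than in sham hearts. Lyz2, the most abundant, had log2 CPM 7.81 to 8.41 in sham and 6.21 and 6.18 in untreated hearts. Both untreated libraries were also below every sham library for Ccr2 and Ms4a7. They were above for Chil3 (4.17 and 3.88, against 2.48 to 2.93), and the other markers overlapped. In bulk tissue, fewer cells of a type and less RNA per cell cannot be told apart.

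The design allows each operated group to be compared with sham and with untreated hearts, and the 2 coagulation inhibitors with each other. A member is called where its adjusted p (limma, Benjamini-Hochberg over 13541 genes) is under 0.05. The comparisons against sham share the same sham libraries, and those against untreated hearts share the same untreated libraries.

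In untreated hearts 29 of 279 members (10.4%) were called against sham, 19 higher and 10 lower, while 10.6% of all genes tested were called (5.07% higher and 5.52% lower). Among members with a mean log2 CPM of at least 1, the largest rises were those of 1200007C13Rik, Gm12840, Gm29371 and Gm26809, and the falls were led by D830026I12Rik, Gm12153 and AU020206. The libraries of the 2 groups did not overlap for 43.5% of all genes tested. Dabigatran hearts had 42 called members against sham (15.1%), 21 higher and 21 lower, beside 18.5% of all genes (11.7% higher and 6.82% lower). Dabigatran and sham libraries did not overlap for 55.9% of all genes tested. With the libraries centred on their medians the split was 20 higher and 31 lower, and with quantile normalization 20 and 33. In aPC hearts 3 members (1.08%) were called against sham, all of them lower (Gm26917, Carmn and Bvht), beside 1.17% of all genes (0.126% higher and 1.05% lower). Non-overlap of aPC and sham libraries was found for 47.2% of all genes. For rivaroxaban against sham limma called 0 members and 0 genes (0%), with 15 members and 761 genes at an unadjusted p under 0.05. limma-voom called 0 members there and a fit with library weights 6, and 32.4% of all genes had libraries that did not overlap. The members nearest to a call there were AU019990 (log2 difference 1.63 ± 0.34 SE, adjusted p = 0.403) and Gm12519 (1.50 ± 0.35, adjusted p = 0.475) on the higher side, and Lppos (-0.47 ± 0.17, adjusted p = 0.776) and 5031425F14Rik (-1.25 ± 0.50, adjusted p = 0.827) on the lower side.

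Against untreated hearts, 26 members (9.32%) were called in rivaroxaban hearts, 14 higher and 12 lower, beside 8.47% of all genes (4.02% higher, 4.45% lower, and 55.5% with libraries that did not overlap). In dabigatran hearts 22 (7.89%) were called, 10 higher and 12 lower, beside 13.8% of all genes (8.71% higher, 5.08% lower, and 48.6% not overlapping), and the split was 9 and 19 after median centring and 7 and 23 after quantile normalization. In aPC hearts 45 (16.1%) were called, 13 higher and 32 lower, beside 17.6% (7.44% higher, 10.2% lower, and 59.2% not overlapping). Rivaroxaban against dabigatran gave 55 called members (19.7%), 32 higher and 23 lower in rivaroxaban, beside 23.3% of all genes (9.39% higher and 14% lower). Over all genes tested that comparison had 1271 higher and 1890 lower, and libraries did not overlap for 70% of them. Median centring changed the members' split to 44 and 20, and quantile normalization to 44 and 21. The members' share was near that of all genes in untreated and aPC against sham and in rivaroxaban and aPC against untreated hearts. It was lower in the comparisons that include dabigatran hearts. Members had a larger median SE, 0.365 against 0.212 over all genes in comparisons with sham and 0.4 against 0.232 in the others.

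**Figure D2:**
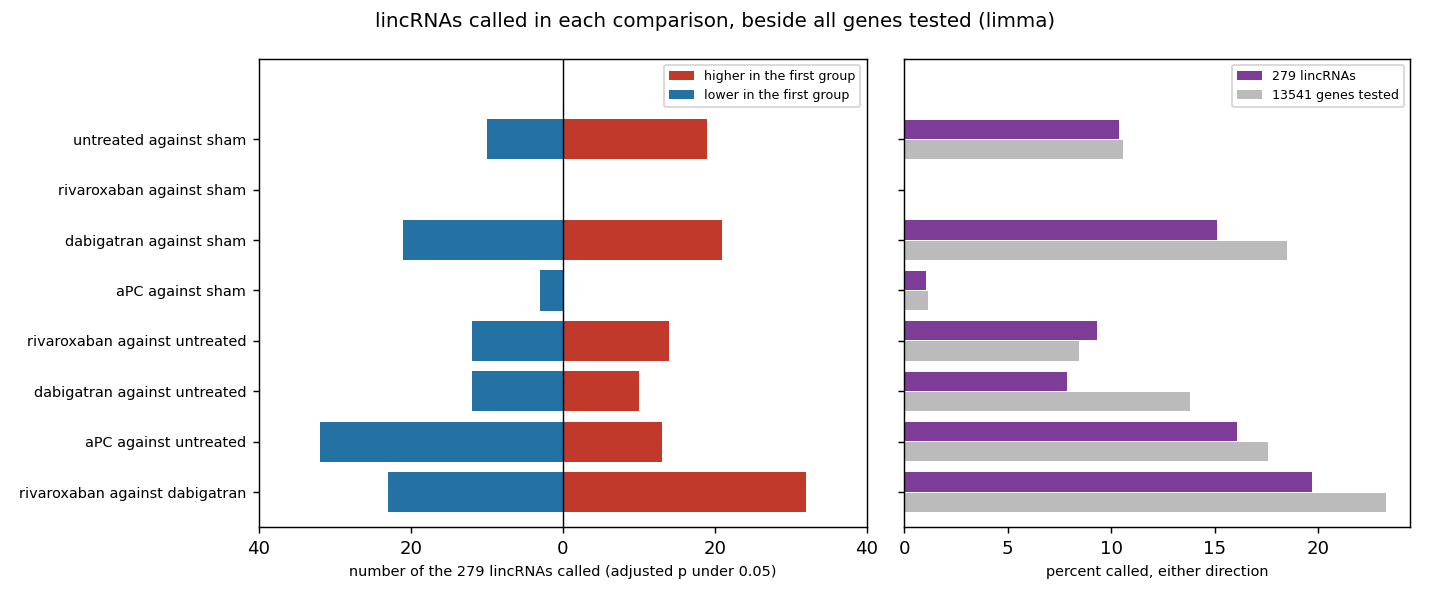
The left panel shows how many of the 279 lincRNAs were called higher (red, to the right) or lower (blue, to the left) in the first-named group of each comparison, and the right panel shows the percent called among the lincRNAs (purple) and among all 13541 genes tested (grey). Rivaroxaban against dabigatran has the longest bars, 32 higher and 23 lower, and rivaroxaban against sham has none.

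These counts depended on single libraries. Leaving out each library in turn, the number called in untreated against sham ran from 7 (without Sham_006) to 113 (without Cont_17), and in rivaroxaban against untreated from 0 (without Riva-313) to 116 (without Cont_17). For dabigatran against sham it ran from 6 (without Dabi-202) to 84 (without Cont_19), for dabigatran against untreated from 3 (without Dabi-202) to 79 (without Cont_17), and for aPC against untreated from 8 (without aPC-792) to 112 (without Cont_17). For rivaroxaban against dabigatran it ran from 14 (without Riva-313) to 99 (without Cont_17), and for aPC against sham from 1 (without Sham_003) to 26 (without Cont_17). When each library was weighted by its own spread, 0 members were called in untreated against sham, 0 in rivaroxaban against untreated and 6 in aPC against untreated. A fit to the 2 groups compared alone called 12, 0 and 0 in those 3 comparisons. Other counts grew: aPC against sham had 51 with library weights and 28 in the fit to its 2 groups alone, and dabigatran against sham had 66 in the latter.

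Some calls were kept in each of the 11 fits that left out a library. In untreated against sham these were 1700030N03Rik, 1700128A07Rik, 5031425F14Rik, Gm26573, Gm26809 and Lncpint. In dabigatran against sham they were 1700030N03Rik, 1700110I01Rik, 1700128A07Rik, Gm26573, Mir142hg and Pvt1, and in aPC against sham Gm26917. Lncpint, 1700110I01Rik and 5031425F14Rik kept theirs in dabigatran against untreated, and Gm26573, Gm26917, Gm38399, H19, Lncpint and Pvt1 in aPC against untreated. Rivaroxaban against dabigatran had 14 such members and rivaroxaban against untreated 0. Part of the calls came from members at the level in 3 or 4 libraries, which can have passed through a group where they were high. Against sham these were 3 of 29 calls in untreated, 4 of 42 in dabigatran and 0 of 3 in aPC hearts. Against untreated hearts they were 1 of 26 in rivaroxaban, 6 of 22 in dabigatran and 3 of 45 in aPC hearts. In rivaroxaban against dabigatran they were 6 of 55.

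Over the operated groups and sham together, a test of any difference among the 5 groups (limma F test) called 76 of 279 members (27.2%), beside 30.2% of all genes. The highest group mean among the 76 was in rivaroxaban hearts for 26, in untreated for 17, in dabigatran for 17, in aPC for 14 and in sham for 2. The lowest was in aPC for 26, in dabigatran for 23, in untreated for 12, in sham for 8 and in rivaroxaban for 7. Of the 4084 genes called in all, 38.4% were highest in dabigatran and 16.9% in rivaroxaban hearts, against 22.4% and 34.2% of the called members. Other noncoding types also had higher medians in rivaroxaban than in dabigatran hearts. Against dabigatran, 32 of 187 antisense genes were higher and 4 lower, and 12 of 156 processed transcripts were higher and 9 lower (all genes 9.39% and 14%). Their median differences were 0.43 and 0.37, against 0.28 for the members and -0.003 over all genes. Against sham, the medians in dabigatran hearts were -0.205 for members, -0.367 for antisense genes and -0.25 for processed transcripts (all genes 0.008). In rivaroxaban hearts they were 0.114, 0.104 and 0.117 (all genes -0.006), with 0 genes called. Without Riva-313 the number of members called was 40, and without Cont_17 it was 159.

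**Figure D3:**
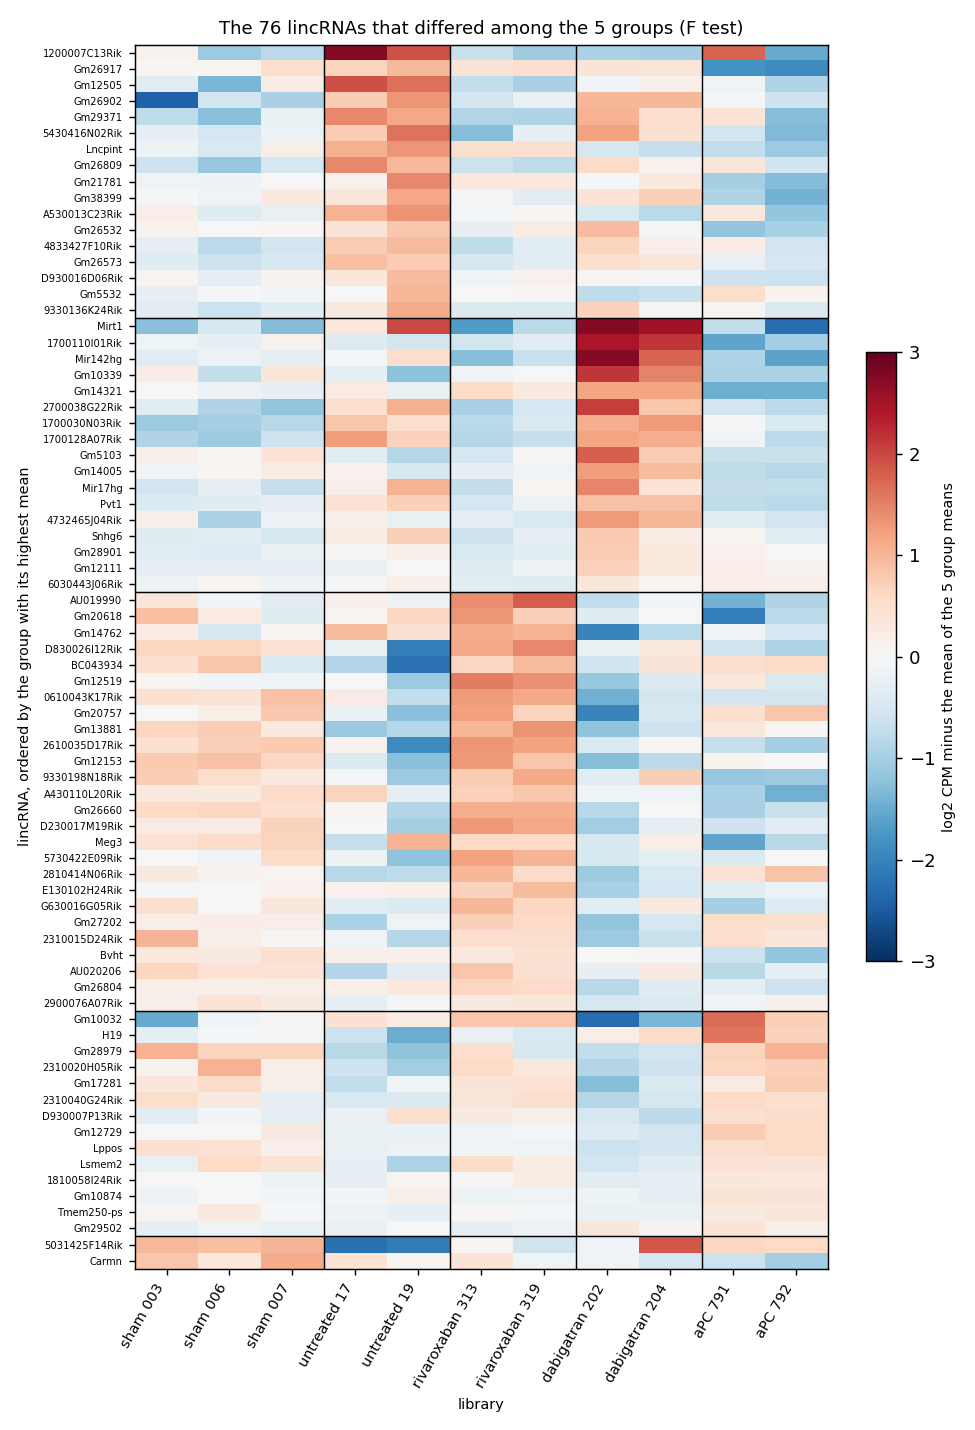
Rows are the 76 lincRNAs that differed among the 5 groups and columns the 11 libraries; the colour is the log2 CPM minus the mean of the 5 group means, from blue (3 below) to red (3 above). Rows are blocked by the group with the highest mean, from untreated (17 rows) through dabigatran (17), rivaroxaban (26) and aPC (14) to sham (2).

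Among the nuclear lincRNAs, Malat1 (chr19:5795690-5802672, minus strand) was the most abundant member by reads. Its log2 CPM was 11.80, 11.74 and 12.79 in sham, 12.59 and 12.85 in untreated, 12.70 and 11.51 in rivaroxaban, 11.78 and 12.12 in dabigatran and 11.62 and 11.42 in aPC hearts. The aPC libraries were among the 3 lowest of the 11, sham and rivaroxaban each held 1 high library, and no comparison of Malat1 was called. The largest difference was -1.20 ± 0.41 (SE) in aPC against untreated, with an adjusted p of 0.0636.

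Neat1 (chr19:5824708-5845478, minus strand) differed most between the untreated libraries among members with a mean log2 CPM of at least 5. It had log2 CPM 11.67 in Cont_17 and 9.47 in Cont_19, which were the highest library and the second-lowest of the 11. Sham hearts had 10.84, 10.48 and 10.58, rivaroxaban 10.76 and 11.18, dabigatran 11.16 and 10.62, and aPC 9.61 and 9.36. The aPC libraries lay below all sham, rivaroxaban and dabigatran libraries, with a difference from sham of -1.15 ± 0.48 (adjusted p = 0.264). Among the genes of paraspeckle proteins, Tardbp rose in dabigatran against sham (0.53 ± 0.14, adjusted p = 0.0265) and Nono rose in dabigatran against untreated (0.58 ± 0.14, adjusted p = 0.0255).

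Per kilobase of exon, Gm26561 was the most abundant member, with a mean of 11.49 on the log2 scale of CPM per kb, followed by Malat1 at 9.38. Neat1, the longest, was at 6.31. Gm26561 (chr17:70878078-71393284, plus strand) spans the Myl12b locus on the other strand, and 1229 of its 1413 exonic bases overlap exons of Gm38220. A single coding gene was recorded for each member, so other coding genes, on either strand, may also lie within Gm26561. Its log2 CPM was 11.75 to 12.19 in sham and 12.88 and 12.19 in aPC hearts, and no comparison called it. The other abundant members 1700020I14Rik (mean log2 CPM 8.32) and 6030443J06Rik (7.62) each passed in 1 comparison. 1700020I14Rik was higher in aPC than in untreated hearts (0.76 ± 0.23, adjusted p = 0.0469), a call kept in 1 of the 11 fits that left out a library, and without Cont_19 the difference was 0.36 (adjusted p = 0.204). 6030443J06Rik was lower in rivaroxaban than in dabigatran hearts (-0.55 ± 0.14, adjusted p = 0.0182, 8 of the 11 fits).

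Gm26917 had the smallest p of the members in the F test (adjusted p = 0.000453). This single-exon transcript lies at chr17:39843013-39846341, just before Gm42418 on the same strand. Its log2 CPM was 6.62, 6.63 and 7.08 in sham, 7.21 and 7.53 in untreated, 6.94 and 7.04 in rivaroxaban, 6.94 and 6.91 in dabigatran, and 4.76 and 4.66 in aPC hearts. The 2 aPC libraries lay below the other 9. The fall was -2.07 ± 0.16 against sham (adjusted p = 0.00117) and -2.66 ± 0.17 against untreated (adjusted p = 7.93e-05), that is 4.2-fold and 6.33-fold. Gm42418 moved the other way in the same libraries, with log2 CPM 16.255 and 16.164 in aPC and 13.14 to 14.34 in the others, and its part in the Gm26917 values was not tested.

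**Figure D4:**
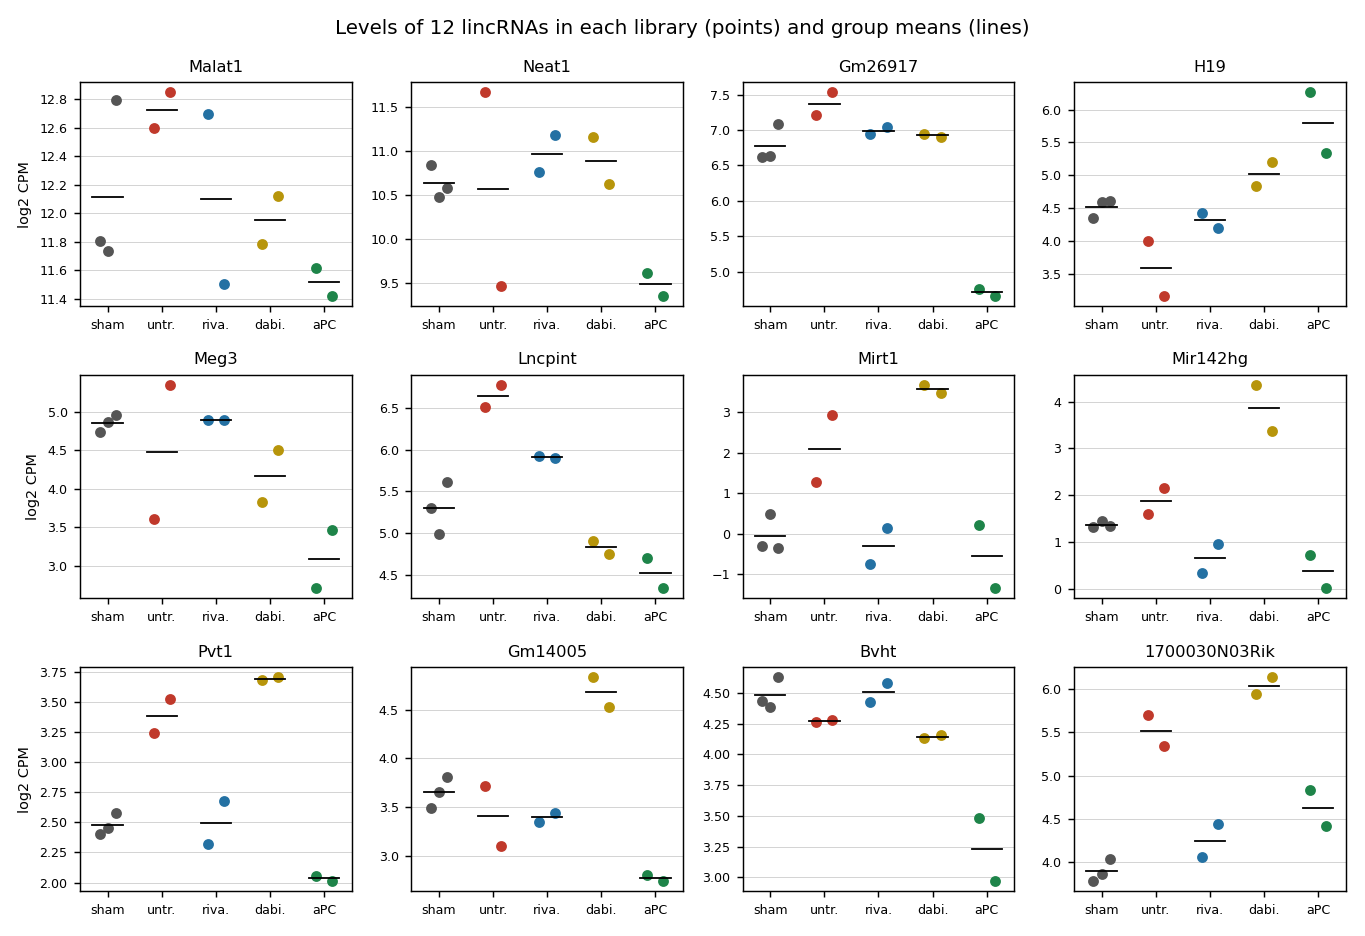
The log2 CPM of 12 lincRNAs is plotted by group, each point being 1 library and each line a group mean; the vertical scales differ between panels and do not start at 0. Gm26917 and Bvht are lowest in the aPC libraries, H19 is highest there, and Mirt1, Mir142hg, Pvt1, Gm14005 and 1700030N03Rik are highest in the dabigatran libraries.

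Of the 5 imprinted or X-linked members (H19, Meg3, Mirg, Jpx and Ftx), H19 was called in comparisons of 2 groups, and Meg3 passed the F test over the 5 groups (adjusted p = 0.0461) with no such call. H19 had log2 CPM 4.34, 4.58 and 4.61 in sham, 3.995 and 3.16 in untreated, 4.43 and 4.20 in rivaroxaban, 4.84 and 5.20 in dabigatran, and 6.26 and 5.34 in aPC hearts. The untreated libraries were the lowest of the 11 and the aPC libraries the highest. H19 was higher in aPC than in untreated hearts by 2.22 ± 0.32 (adjusted p = 0.00337, 4.67-fold) and in dabigatran than in untreated hearts by 1.44 ± 0.32 (adjusted p = 0.0176). The dabigatran call was lost without Cont_19 (1.02, adjusted p = 0.0664), without Dabi-202 (1.62, adjusted p = 0.0573) and without Dabi-204 (1.26, adjusted p = 0.0813). Against sham neither the untreated (-0.93 ± 0.29, adjusted p = 0.0662) nor the aPC difference (1.29 ± 0.29, adjusted p = 0.0718) was called. Igf2, the growth factor gene of the same imprinted cluster, was higher in aPC than in untreated hearts by 1.23 ± 0.28 (adjusted p = 0.017).

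Meg3 and Mirg come from the imprinted cluster on chromosome 12, Mirg holding 26 of the mature microRNAs. Meg3 had log2 CPM 4.74, 4.87 and 4.96 in sham, 3.61 and 5.34 in untreated, 4.90 and 4.89 in rivaroxaban, 3.82 and 4.50 in dabigatran, and 2.71 and 3.47 in aPC hearts. The aPC libraries were the lowest of the 11, and the difference from sham was -1.76 ± 0.42 (adjusted p = 0.0824). Gm27000, on the X chromosome, has a transcript that is 99.9% identical to Meg3 over its whole length of 842 matched bases, so reads of the 2 may have been divided. Rian, another transcript of that cluster that is typed as a processed transcript and is no member, was lower in untreated than in sham hearts (-1.37 ± 0.27, adjusted p = 0.0156). Jpx, which activates Xist, and Ftx, its neighbour in the X inactivation centre, varied between log2 CPM 0.50 and 1.71 and between 1.57 and 2.46, with no call.

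A role list drawn up for hosts of small RNAs held 10 members. It leaves out several of the 15 members found by position to hold microRNAs. The list also includes Mirt1 and Lncpint, which are not among those 15. Of the 10, 4 rose and 1 fell in dabigatran against sham (all genes tested 11.7% and 6.82%), and 3 rose in untreated against sham (5.07%). Their median difference was 0.80 and 0.72, against 0.0080 and -0.03 over all genes tested. In aPC against untreated 5 fell and 0 rose (10.2% and 7.44% of all genes), with a median of -1.03 against 0.07 over all genes. Mirt1 and Lncpint were among the untreated rises and the aPC falls, and Mirt1 was among the dabigatran rises. Outside the list, 2900076A07Rik fell in dabigatran against sham by -0.75 ± 0.15 (adjusted p = 0.00824) and E130102H24Rik by -0.77 ± 0.24 (adjusted p = 0.0466, 3 of the 11 fits that left out a library), both named after their values were seen. Mir142hg had log2 CPM 1.32, 1.44 and 1.35 in sham, 1.60 and 2.16 in untreated, 0.35 and 0.95 in rivaroxaban, 4.36 and 3.36 in dabigatran, and 0.73 and 0.01 in aPC hearts. The 2 dabigatran libraries lay above the other 9, and rivaroxaban and aPC lay below sham. The rise in dabigatran was 2.49 ± 0.36 against sham (adjusted p = 0.00225, 5.63-fold). It was 1.98 ± 0.40 against untreated (adjusted p = 0.0107), and 1.49 (adjusted p = 0.0875) without Dabi-202. In rivaroxaban against dabigatran the difference was -3.21 ± 0.40 (adjusted p = 0.000689).

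Mir142hg and the neutrophil markers were both highest in the dabigatran libraries, and among those libraries both were higher in Dabi-202 than in Dabi-204. Monocyte and recruited macrophage markers were highest there too, at 562 CPM in Dabi-202 and 536 in Dabi-204. B and T cell markers were low but also highest there, in the other order, at 6.8 and 10.2 CPM. In the other libraries they summed to 1.90 to 4.22 CPM. In aPC and rivaroxaban hearts, where Mir142hg lay below the sham libraries, the neutrophil sums were 43.2 to 110 and 18.9 to 42.5 CPM. Whether leukocyte numbers set the Mir142hg level was not tested.

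**Figure D5:**
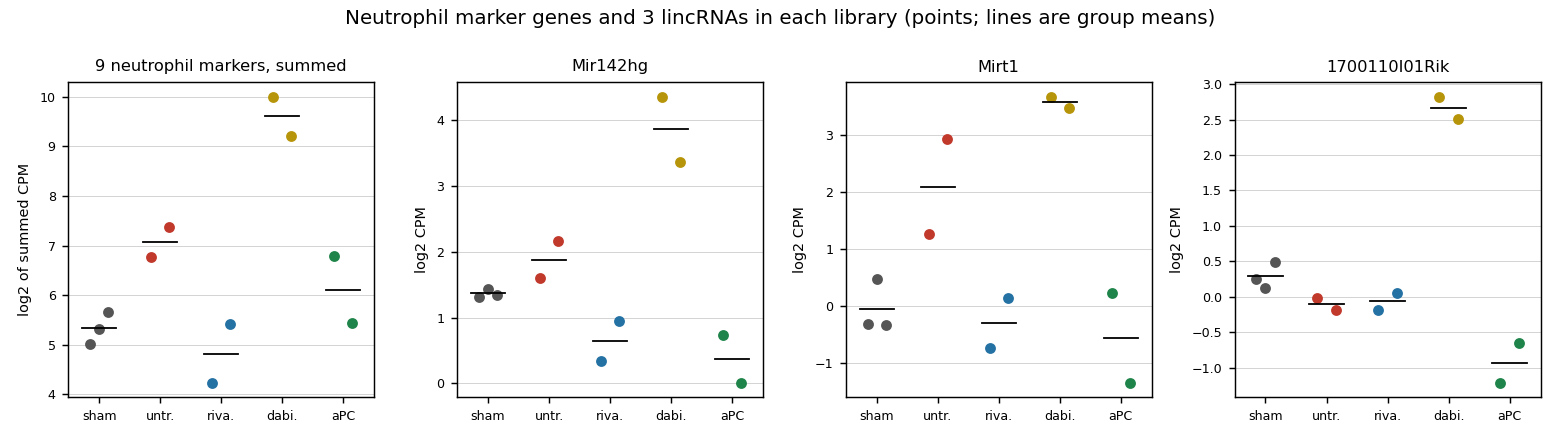
The left panel plots the log2 of the summed CPM of 9 neutrophil marker genes in each library by group, and the other panels the log2 CPM of Mir142hg, Mirt1 and 1700110I01Rik; lines are group means and the vertical scales differ and do not start at 0. In each panel the 2 dabigatran libraries are the highest.

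Mir17hg had log2 CPM 0.90, 1.18 and 0.75 in sham, 1.61 and 2.50 in untreated, 0.73 and 1.51 in rivaroxaban, 2.91 and 1.86 in dabigatran, and 0.73 and 0.70 in aPC hearts. It rose in dabigatran against sham by 1.44 ± 0.39 (adjusted p = 0.03), a call held in 7 of the 11 fits that left out a library. In untreated hearts, whose libraries also lay above sham, the difference was 1.11 ± 0.39 (adjusted p = 0.0887). Snhg6, a host of small nucleolar RNAs, had 3.10, 3.16 and 2.98 in sham, 3.69 and 4.19 in untreated and 4.25 and 3.69 in dabigatran hearts. It rose in both, by 0.86 ± 0.24 (adjusted p = 0.0453) and 0.89 ± 0.24 (adjusted p = 0.0281), the calls being held in 3 and 7 of the 11 fits. Snhg12 had differences of 1.07 ± 0.41 (adjusted p = 0.108) and 1.06 ± 0.41 (adjusted p = 0.0985) in the same comparisons. Snhg20 was lower in aPC than in untreated hearts (-0.97 ± 0.29, adjusted p = 0.0427, 2 of the 11 fits), and Snhg18 and Epb41l4aos were called in no comparison.

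Several hosts of small nucleolar RNAs are typed as processed transcripts and were not members. Snhg5 and Snhg17 rose in untreated against sham by 1.39 ± 0.39 (adjusted p = 0.0468) and 1.35 ± 0.38 (adjusted p = 0.0472). In dabigatran against sham Gas5, Zfas1, Snhg5, Snhg15 and Snhg17 rose, by 1.12 to 1.56. The other listed small RNA hosts that are no members were Snhg11, Snhg14, Mir99ahg, A330023F24Rik and Dleu2. They were called in neither of these comparisons, with dabigatran differences of -0.525 to 0.745. Of all genes tested, 5.07% rose in untreated and 11.7% in dabigatran against sham. E130102H24Rik, which holds miR-101a and was named after its values were seen, was higher in rivaroxaban (2.20 and 2.47) than in dabigatran hearts (0.55 and 1.01), a difference of 1.55 ± 0.26 (adjusted p = 0.00284).

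The members known from heart or vessel wall were Mirt1, Bvht, Carmn, Lncpint, H19 and Meg3. Against sham 2 of the 6 rose in untreated hearts (Mirt1 and Lncpint), 1 rose and 1 fell in dabigatran (Mirt1 and Carmn), and 2 fell in aPC (Bvht and Carmn). Of all genes tested, 5.07% rose in untreated, 11.7% rose and 6.82% fell in dabigatran, and 1.05% fell in aPC hearts against sham. Their median difference in aPC was -1.02 against sham and -1.23 against untreated hearts, while over all genes tested it was 0.03 and 0.07.

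Mirt1 (chr19:53443230-53464796, minus strand) was low, with levels of log2 CPM -0.31, 0.48 and -0.34 in sham, 1.27 and 2.92 in untreated, -0.74 and 0.14 in rivaroxaban, 3.67 and 3.48 in dabigatran, and 0.22 and -1.35 in aPC hearts. All untreated and dabigatran libraries lay above all others. In dabigatran it rose 12.4-fold against sham (3.63 ± 0.57 on the log2 scale, adjusted p = 0.00323), and without Dabi-202 the difference was 3.54 (adjusted p = 0.051). The untreated rise was 2.15 ± 0.57 (adjusted p = 0.0408), and it kept the call in 3 of the 11 fits. Mirt1 was lower in rivaroxaban than in dabigatran hearts by 3.88 ± 0.63 (log2 difference -3.88, adjusted p = 0.00255, called in 11 of 11 fits), and lower in aPC than in untreated hearts (-2.65 ± 0.63, adjusted p = 0.0206). Its exons overlap those of 4833407H14Rik over 1008 bases.

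Bvht and Carmn are neighbours on chromosome 18. Bvht had log2 CPM 4.43, 4.39 and 4.63 in sham, 4.27 and 4.28 in untreated, 4.43 and 4.58 in rivaroxaban, 4.14 and 4.16 in dabigatran, and 3.49 and 2.97 in aPC hearts. The aPC libraries were below all others, by -1.25 ± 0.17 against sham (adjusted p = 0.0134) and -1.04 ± 0.19 against untreated (adjusted p = 0.008). Leaving out any single sham or aPC library ended the sham call, with adjusted p-values of 0.0576 to 0.112 and differences of -0.997 to -1.51. Carmn, known from smooth muscle cells, had 3.17, 2.65 and 3.47 in sham, 2.78 and 2.41 in untreated, 2.77 and 2.23 in rivaroxaban, 2.23 and 1.84 in dabigatran, and 1.70 and 1.34 in aPC hearts. Its lowest libraries were the aPC ones, and it fell against sham by -1.58 ± 0.29 in aPC (adjusted p = 0.0361) and by -1.07 ± 0.29 in dabigatran (adjusted p = 0.032), calls held in 4 and 7 of the 11 fits. The 8 smooth muscle and pericyte markers summed to 1503 to 1628 CPM in sham, 1001 to 1192 in dabigatran and 1252 to 1435 in aPC hearts, with 1 of the 8 called lower in aPC and 2 in dabigatran against sham. In untreated hearts they summed to 1056 to 1354 CPM, with 2 called lower. The median log2 difference of the 8 from sham was -0.774 in aPC, -0.114 in dabigatran and -0.814 in untreated hearts. Cnn1, Myh11, Tagln, Acta2 and Pdgfrb were lower in both aPC libraries than in every sham library. Kcnj8 was higher there, and Rgs5 and Abcc9, the most abundant of the 8, overlapped sham. Myh11, for example, had log2 CPM 4.95 and 4.79 in aPC and 6.41 to 6.67 in sham hearts. The part of these markers in the Carmn values was not tested.

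Lncpint (chr6:31082565-31220488, minus strand), a transcript linked to the p53 response, separated the operated groups. It had log2 CPM 5.30, 4.99 and 5.61 in sham, 6.51 and 6.78 in untreated, 5.92 and 5.90 in rivaroxaban, 4.91 and 4.76 in dabigatran, and 4.71 and 4.34 in aPC hearts. Untreated and rivaroxaban libraries lay above every sham library, and dabigatran and aPC libraries below every one. The untreated rise over sham was 1.34 ± 0.19 (adjusted p = 0.00404). Against untreated hearts it fell by -1.81 ± 0.21 in dabigatran (adjusted p = 0.000847) and -2.12 ± 0.21 in aPC (adjusted p = 0.000613), and in rivaroxaban the difference was -0.73 ± 0.21 (adjusted p = 0.0541). All 3 calls, and the rivaroxaban against dabigatran difference of 1.08 ± 0.21 (adjusted p = 0.00543), were held in 11 of 11 fits.

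Members known from leukocytes, inflammation or stress were Neat1, Mir142hg, Gm14005, Pvt1 and AW112010. In dabigatran against sham 3 of the 5 rose (Mir142hg, Gm14005 and Pvt1), beside 11.7% of all genes, and their median difference was 1.03, against 0.0080 over all genes. Gm14005 lies in the Morrbid region beside Bcl2l11, which codes for the pro-apoptotic protein Bim, and Morrbid is known for its part in the life span of short-lived myeloid cells. Its log2 CPM was 3.50, 3.65 and 3.81 in sham, 3.72 and 3.10 in untreated, 3.34 and 3.44 in rivaroxaban, 4.83 and 4.53 in dabigatran, and 2.81 and 2.74 in aPC hearts. The dabigatran libraries lay above the rest and the aPC libraries below the rest. The rise was 1.03 ± 0.21 against sham (adjusted p = 0.00939) and 1.27 ± 0.23 against untreated (adjusted p = 0.00664), and without Dabi-202 these were 0.88 (adjusted p = 0.119) and 1.12 (adjusted p = 0.0558). Bcl2l11, 15772 bp away, was lower in dabigatran than in untreated hearts (-0.66 ± 0.17, adjusted p = 0.0278) and higher in rivaroxaban than in dabigatran hearts (0.92 ± 0.17, adjusted p = 0.00397), where Gm14005 was lower (-1.29 ± 0.23, adjusted p = 0.00375). In dabigatran against sham Bcl2l11 was not called (-0.25 ± 0.15, adjusted p = 0.275).

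Pvt1 (chr15:62037986-62378096, plus strand) lies downstream of Myc, the proliferation regulator. It had log2 CPM 2.41, 2.46 and 2.58 in sham, 3.24 and 3.52 in untreated, 2.32 and 2.67 in rivaroxaban, 3.69 and 3.70 in dabigatran, and 2.05 and 2.02 in aPC hearts. Untreated and dabigatran libraries were above all others. Pvt1 rose against sham by 0.90 ± 0.19 in untreated (adjusted p = 0.019) and 1.21 ± 0.19 in dabigatran hearts (adjusted p = 0.00308), the first being lost without Cont_19 (0.76, adjusted p = 0.0614), Sham_003 (0.86, adjusted p = 0.0686) or Sham_006 (0.89, adjusted p = 0.0744). Myc rose in the same 2 comparisons by 2.19 ± 0.33 (adjusted p = 0.00566) and 2.71 ± 0.33 (adjusted p = 0.00127). Both genes were lower in rivaroxaban than in dabigatran hearts, Pvt1 by -1.20 ± 0.21 and Myc by -2.39 ± 0.36 (adjusted p = 0.00346 and 0.00182).

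AW112010, an interferon-inducible transcript of leukocytes, had log2 CPM 3.38 in Cont_17 and 1.03 in Cont_19, with 3.12 to 3.54 in sham, 3.41 and 3.39 in rivaroxaban, 2.34 and 2.46 in dabigatran, and 3.77 and 3.82 in aPC hearts. It was called in no comparison.

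1700110I01Rik was highest in dabigatran hearts, with log2 CPM 2.82 and 2.51 there, 0.25, 0.12 and 0.49 in sham, -0.02 and -0.19 in untreated, -0.18 and 0.06 in rivaroxaban, and -1.21 and -0.64 in aPC hearts. Its rise was 2.38 ± 0.30 against sham (adjusted p = 0.00144) and 2.77 ± 0.33 against untreated (adjusted p = 0.00103). Its transcripts match those of 10 other genes at 95% identity or more, reaching 99.7% with the coding gene Gm2916, so the locus that gave the reads is uncertain. Gm10339, a member with the same match, rose too, by 1.85 ± 0.43 against sham (adjusted p = 0.0169, 9 of the 11 fits). Gm10339 reached the level in 4 libraries, 2 of sham and 2 of dabigatran, so it passed the filter only through the group where it was high. The 2 members share near-identical copies, so their rises cannot be counted as separate.

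1700030N03Rik and 1700128A07Rik, whose promoter windows are printed above, were high in both untreated and dabigatran hearts. 1700030N03Rik had log2 CPM 3.79, 3.86 and 4.04 in sham, 5.69 and 5.34 in untreated, 4.06 and 4.44 in rivaroxaban, 5.95 and 6.13 in dabigatran, and 4.83 and 4.42 in aPC hearts. 1700128A07Rik had 1.94, 1.78 and 2.22 in sham, 4.11 and 3.55 in untreated, 2.00 and 2.15 in rivaroxaban, 4.03 and 3.94 in dabigatran, and 2.72 and 2.07 in aPC hearts. For both, the untreated and dabigatran libraries lay above the other 7. The rises against sham were 1.62 ± 0.19 and 2.14 ± 0.19 for 1700030N03Rik (adjusted p = 0.00172 and 0.000977) and 1.85 ± 0.26 and 2.00 ± 0.26 for 1700128A07Rik (adjusted p = 0.0039 and 0.00144). Rivaroxaban hearts were lower than untreated hearts, by -1.27 ± 0.20 (adjusted p = 0.00867) and -1.75 ± 0.28 (adjusted p = 0.00836), and 1700030N03Rik lost that call without Riva-313 and 1700128A07Rik without either rivaroxaban library. 1700030N03Rik matches Gm49507 over 94% of a transcript at 99.3% identity.

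Gm26573, Gm26809, Gm12840, Gm29371 and 1200007C13Rik were highest in untreated hearts. Gm26573 had log2 CPM 4.75, 4.50 and 4.63 in sham and 6.02 and 5.87 in untreated hearts, a rise of 1.32 ± 0.15 (adjusted p = 0.00148), and it is 98.8% identical to another member, C230088H06Rik, over 99.8% of a transcript. C230088H06Rik itself had 1.43, 1.53 and 1.35 in sham and 1.72 and 1.13 in untreated hearts. Gm26809 had 5.64, 5.12 and 5.76 in sham and 7.70 and 7.23 in untreated hearts (1.96 ± 0.29, adjusted p = 0.00529), and Gm12840 had 3.73, 2.84 and 4.10 and then 6.47 and 5.23 (2.30 ± 0.56, adjusted p = 0.0309, 8 of the 11 fits). The 2 are linked by sequence: the Gm12840 transcript is 99.1% identical to Gm20186 over its whole length, and the exons of Gm26809 overlap those of Gm20186 over 855 bases.

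1200007C13Rik had log2 CPM 4.87 and 4.05 in untreated hearts, 2.25, 1.06 and 1.33 in sham, 1.47 and 1.07 in rivaroxaban, 1.20 and 1.15 in dabigatran, and 3.88 and 0.62 in aPC hearts. The 2 aPC libraries differed from each other by more than 3 on the log2 scale. Its rise over sham, 2.91 ± 0.75 (adjusted p = 0.0363), was held in 4 of the 11 fits, and its lower level in dabigatran than in untreated hearts, -3.28 ± 0.82 (adjusted p = 0.0271), in 9. 5031425F14Rik went the other way, with -2.41 and -2.27 in untreated and 0.81, 0.73 and 0.84 in sham hearts, a fall of -3.13 ± 0.50 (adjusted p = 0.00742, called in 11 of 11 fits). Its mean over the libraries was low, at log2 CPM -0.08.

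Gm12153 was lower in untreated and dabigatran hearts than in sham or rivaroxaban hearts. It had log2 CPM 1.79, 1.87 and 1.61 in sham, 0.57 and -0.25 in untreated, 2.29 and 1.82 in rivaroxaban, -0.28 and 0.22 in dabigatran, and 1.10 and 0.99 in aPC hearts. The 4 untreated and dabigatran libraries were below the other 7. Against sham it fell by -1.60 ± 0.32 in untreated (adjusted p = 0.0155) and -1.79 ± 0.32 in dabigatran hearts (adjusted p = 0.0055), calls held in 8 and 10 of the 11 fits. Rivaroxaban was above dabigatran by 2.09 ± 0.35 (adjusted p = 0.00276). Adra1b, the gene of an adrenergic receptor 57879 bp from Gm12153, changed in the same direction in dabigatran against sham (-0.85 ± 0.14, adjusted p = 0.00437) and in rivaroxaban against dabigatran (1.16 ± 0.16, adjusted p = 0.00106). Lppos, which lies inside Lpp on the other strand, was lower in dabigatran than in sham hearts. It had 3.87, 3.80 and 3.50 in sham and 2.72 and 2.80 in dabigatran hearts (-0.97 ± 0.17, adjusted p = 0.00504, 10 of the 11 fits).

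Rivaroxaban hearts had the highest levels of Gm12519 and AU019990. Gm12519 had log2 CPM 3.75 and 3.60 there, 2.29, 2.14 and 2.09 in sham, 2.22 and 1.13 in untreated, 1.08 and 1.78 in dabigatran, and 2.53 and 1.79 in aPC hearts. AU019990 had 2.24 and 2.67 in rivaroxaban, 1.19, 0.76 and 0.53 in sham, 1.00 and 0.66 in untreated, 0.12 and 0.76 in dabigatran, and -0.56 and -0.05 in aPC hearts. In both cases the rivaroxaban libraries lay above the other 9. Against dabigatran the differences were 2.25 ± 0.39 (adjusted p = 0.00334) and 2.02 ± 0.37 (adjusted p = 0.0043), held in 11 of 11 fits, and against untreated they were 2.00 ± 0.39 (adjusted p = 0.0175) and 1.62 ± 0.37 (adjusted p = 0.0277), held in 9 and 8 of the 11 fits.

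Neighbouring coding genes were set beside the members. Among 115 members whose nearest coding gene lay within 10 kb or overlapped them and was tested, the signs of the 2 differences were the same for 74 in untreated against sham and for 63 in dabigatran against sham. Across these pairs Pearson's r was 0.43 and 0.46 and Spearman's rho 0.37 and 0.30, as a description, since pairs share libraries and are not independent. Of 11 such members called in dabigatran against sham, 3 had a neighbour that was called too, 2 of them in the same direction, and in rivaroxaban against dabigatran it was 4 of 16, with 2 in the same direction. It was 3 of 6 in untreated against sham, all in the same direction, 2 of 18 in aPC against untreated, both in the same direction, and 0 of 5 and 0 of 3 in rivaroxaban and dabigatran against untreated. Of all genes tested, 18.5%, 23.3%, 10.6%, 17.6%, 8.47% and 13.8% were called in these 6 comparisons. Gm26902, which overlaps Ch25h (an interferon-induced cholesterol hydroxylase), was a pair of that kind, chosen after its values were seen. Gm26902 reached the level in 4 libraries, all of them untreated or dabigatran, so it passed the filter through groups where it was high and had to differ. It rose in dabigatran against sham by 2.29 ± 0.54 (adjusted p = 0.0171) and Ch25h by 2.90 ± 0.31 (adjusted p = 0.000977). In the same comparison Gm12319 had a difference of -0.77 ± 0.23 (adjusted p = 0.0445), a call kept in 2 of the 11 fits, and its neighbour Pfn1, 97 bp away, rose by 0.88 ± 0.16 (adjusted p = 0.00554).

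Near-identical copies limit some of these values. A transcript of 19 members matched a transcript of another gene at 95% identity or more over 50% or more of its length. Of the called members, 3 of 29 had such a match in untreated against sham, 5 of 42 in dabigatran against sham and 7 of 55 in rivaroxaban against dabigatran. Gm10076, for example, is 99.5% identical to a transcript of the ribosomal protein gene Rpl41 over 99.7% of its length. Gm10076, Gm10339, Gm12319, Gm27000, Gm38399 and C230088H06Rik were named after their values were seen.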

How the data were processed

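RNA was sequenced from polyadenylated libraries of mouse heart. The deposited table gives log2 CPM per gene after TMM scaling, per the file headers, for 11 libraries. bcl2fastq, FastQC, Trim Galore, STAR, edgeR and mm10 are named by the submitters' processing notes, with no versions or settings. The kit kept strand, per the labels' protocols. How reads were counted is not given in the sources used here. Whole reads were recovered from the steps of the log2 values (100% within 0.05 of a whole number). The 13541 genes at log2 CPM 0 or more in at least 3 libraries were fitted over all 5 groups with limma 3.58.1 (limma-trend) in R 4.3.3, with no covariate, and two-sided p-values were adjusted by Benjamini-Hochberg over all of them. The script was tested on simulated data. The members and lists were chosen with earlier results of these data known. Named members were the 6 with the highest mean, the 4 largest rises and falls of each comparison among called members with a mean log2 CPM of at least 1 and libraries that did not overlap (the 2 smallest p each way where none was called), the 8 smallest p of the F test, the role lists and 2 members each side of the level rule; others are said to be named after their values were seen. Some results are not reported here. Locations came from GENCODE M21 (GRCm38), copies from BLAST+ 2.17.0+, sequences from RefSeq (GRCm38.p6). Alternatives were another filter, scaling, weighting, limma-voom, a fit of the compared groups alone and leaving out each library.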

Additional observations from a re-analysis of the deposited data

How the results depend on the processing

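The number of members called moved with the fit more than with the scaling. With the compared groups fitted alone it was 12 in untreated against sham, 66 in dabigatran against sham, 28 in aPC against sham, and 0, 3 and 0 in rivaroxaban, dabigatran and aPC against untreated. With library weights it was 0, 6 and 51 in untreated, rivaroxaban and aPC against sham, and 0, 1 and 6 in rivaroxaban, dabigatran and aPC against untreated. At a stricter level (log2 CPM 2), which tested fewer members, it was 14 and 22 in untreated and dabigatran against sham, 12, 9 and 29 in rivaroxaban, dabigatran and aPC against untreated, 28 in rivaroxaban against dabigatran and 45 in the F test. Leaving out 1 library at a time gave 7 to 113 in untreated, 0 to 0 in rivaroxaban, 6 to 84 in dabigatran and 1 to 26 in aPC against sham. It gave 0 to 116, 3 to 79 and 8 to 112 in rivaroxaban, dabigatran and aPC against untreated, 14 to 99 in rivaroxaban against dabigatran and 40 to 159 in the F test. A group left with 1 library is assumed to vary like the others. Except for the stricter level, the cause was not tested. No level filter, median centring, quantile normalization, a robust prior and limma-voom kept each count within 1.5 times. Of 1769 values of named members under these alternatives, 1405 kept their direction and side of the threshold, 361 lost the call, 3 gained it and 0 reversed. No paired analysis was possible because the groups share no replicate numbers. A log2 CPM of 0 stands for 22.8 to 37.4 reads, which limits the precision of the low members.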
